A study of Xenopus laevis with 74 samples.

Results

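The Mix and Bix genes encode homeodomain transcription factors of the mesendoderm, the cells that give rise to mesoderm and endoderm. The members described here are mix1, mixer, bix1.1, bix1.2, bix1.3 and sebox, taken by gene symbol. Xenopus laevis is an allotetraploid frog, and most of its genes exist as an L and an S homeolog. The symbols matched 11 rows of the 45656 genes in the count table, with 5 homeolog pairs and sebox present only as sebox.L. All 11 rows reached 15 counts in at least 1 library and were among the 27424 genes tested.

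RNA was sequenced from animal caps, explants of pluripotent cells taken from the blastula roof of wild-type embryos, at 6 stages, from stage 9 in the late blastula over 10, 10.5, 11 and 12 to stage 13 in the early neurula. Caps left untreated became epidermal. Noggin at 100 ng/uL was given for the neural lineage, BMP4/7 at 20 ng/uL for ventral mesoderm and Activin at 160 ng/uL for endoderm, as the labels state the doses, while the methods of the study give other units. Each of the 24 groups had 3 libraries of pooled explants, apart from ventral mesoderm at stage 11 with 5, which gave 74 libraries. The study took its embryos each day from 1 female, so that parentage may differ between replicates. The methods of the study name a medium low in calcium and magnesium for the Noggin explants. For the other treated explants they name a Ringer's solution, and for untreated explants no separate medium. Noggin and its medium therefore cannot be told apart where neural explants are compared with other lineages. Levels are given as TPM, transcript abundance scaled to gene length and library, which can be compared between genes. Tests were run on read counts, and CPM denotes counts scaled to the reads on genes in a library. P-values measure the spread between these libraries.

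As background, Activin and Nodal ligands signal through type I and type II receptors to Smad2, which enters the nucleus and acts with DNA-binding partners. Mix1 was found in Xenopus as a gene that responds at once to Activin. Mixer binds Smad2 and carries it to target promoters, the Bix genes are also targets of the T-box factor VegT, and in zebrafish the sebox gene mezzo acts in mesendoderm under Nodal control. Mix and Bix proteins promote endoderm and are known to restrain mesodermal genes such as brachyury.

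In the RefSeq gene table, whose assembly is not the build of the files, bix1.3.L, bix1.1.L, mix1.L and mixer.L follow each other directly, and mixer.S, mix1.S, bix1.1.S, bix1.2.S and bix1.3.S do so in the other subgenome, while sebox.L lies elsewhere. Reads of neighbouring relatives and of homeologs may have been split between rows, and values of a single Bix row are uncertain to that extent. The row of bix1.2.S in the count table carries the older symbol bix2.L, which RefSeq lists for this gene. No gene was found in RefSeq under the symbol bix1.2.L. The place of that row was not determined, and its pairing with bix1.2.S rests on the symbols.

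Between 11938338 and 23215739 reads per library lay on genes. Summed endoderm markers reached 1079 to 1197 CPM in endoderm at stage 10.5 and at most 274.7 CPM in the other lineages. At stage 13 the endoderm marker sum was at least 8716 CPM in endoderm and 377.9 to 1641 CPM in neural explants, up to 1105 CPM in ventral mesoderm and 74.55 to 138.2 CPM in epidermal explants. Summed markers of ventral mesoderm at stage 12 reached 621 to 2154 CPM in ventral mesoderm and at most 259.6 CPM elsewhere. At stage 10.5 the same sum ranged from 8.84 to 179 CPM in ventral mesoderm and from 81.4 to 144 CPM in endoderm, so that the groups overlapped. Neural markers at stage 12 overlapped between neural explants, with 1319 to 1841 CPM, and endoderm, with 1425 to 1504 CPM. Epidermal markers at stage 13 overlapped between ventral mesoderm, with 1934 to 4194 CPM, and epidermal explants, with 3862 to 7536 CPM. edgeR called 0 of 10 epidermal marker rows lower in ventral mesoderm at that stage (0.645% of all genes called lower), and DESeq2 called 2 (4.75%). Ventral mesoderm libraries were run on a HiSeq instrument and all others on a NextSeq, so that sequencer and this lineage cannot be told apart. For 4 of the 5 stage 11 libraries of ventral mesoderm, numbered 2 to 5, the TPM column was nearest to a count column of another number, and TPM replicate 4 correlated with other TPM columns of its group at no more than 0.751. Values of that group are therefore not matched by replicate between tables.

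All 11 rows rose in endoderm between stages 9 and 10 and were higher than in untreated explants at every later stage. mix1, the early Activin response gene, had 6.98, 11.5 and 6.62 TPM of mix1.L in the 3 endoderm libraries at stage 9 and 6.01, 11.9 and 12.7 TPM in the epidermal libraries, which overlapped. At stage 10 mix1.L stood at 335, 403 and 385 TPM in endoderm and at 4.70, 8.83 and 7.63 TPM in epidermal explants. At stage 10.5 it reached 897, 1054 and 932 TPM against 0.81, 2.46 and 2.71 TPM. The groups no longer overlapped, and mix1.L differed by 5.68 ± 0.25 (SE) on the log2 scale at stage 10 (edgeR adjusted p = 6.14e-06) and by 8.81 ± 0.44 at stage 10.5 (edgeR adjusted p = 2.62e-05). mix1.S moved from 0.66, 0.65 and 0.56 TPM at stage 9 to 732, 762 and 632 TPM at stage 10.5. In bulk RNA, more cells that express a gene and more RNA per cell cannot be told apart.

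mixer, which couples Smad2 to DNA, became the most abundant member per length. In endoderm mixer.L had 0.45, 0.51 and 0.32 TPM at stage 9 and 171, 201 and 162 TPM at stage 10. It stood at 1528, 2146 and 1252 TPM at stage 11. In epidermal explants at stage 11 mixer.L had 0.54, 0.56 and 0.49 TPM, and the difference was 11.98 ± 0.43 on the log2 scale (edgeR adjusted p = 1.06e-06). mixer.S followed with 1071, 1608 and 896 TPM at stage 11 in endoderm.

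The Bix genes were at or near their highest level by stage 10. bix1.3, the most abundant of them with L and S summed, had 2.73, 5.32 and 3.73 TPM in endoderm at stage 9 and 738, 876 and 971 TPM at stage 10. bix1.2 summed rose from 1.89, 5.50 and 5.02 TPM to 635, 659 and 884 TPM over the same step. bix1.1 summed started higher, at 18.9, 18.9 and 17.5 TPM, and stood at 279, 269 and 312 TPM at stage 10. All endoderm libraries at stage 10 were thus far above those at stage 9. bix1.3.S differed from epidermal explants at stage 10 by 8.14 ± 0.27 on the log2 scale (edgeR adjusted p = 1.36e-06).

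sebox.L was the least abundant and the slowest. It had 0.28, 0.24 and 0.13 TPM in endoderm at stage 9, 1.69, 1.77 and 2.07 TPM at stage 10 and 17.7, 13.9 and 14.6 TPM at stage 10.5. Its highest values were 34.0, 38.1 and 36.8 TPM at stage 12, where the epidermal libraries had 0.29, 0.46 and 0.23 TPM. The epidermal libraries held at most 3 counts of sebox.L at that stage, so no fold is given (edgeR adjusted p = 4.26e-07).

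Over the family, edgeR's quasi-likelihood test called 0 of 11 rows at stage 9, the baseline at which treatment began. There 0.0109% of all genes were called higher in endoderm, no row had an unadjusted p under 0.05 and DESeq2 also called 0. edgeR called 11 of 11 higher at each of stages 10, 10.5, 11, 12 and 13, where 2.51%, 4.33%, 6.43%, 12.2% and 17.9% of all genes were called higher. Each library of endoderm lay above each epidermal library for all 11 rows at these 5 stages. The share of all genes with such separate groups is not given. Stage 10 had a median log2 difference of 8.83 over the rows, stage 10.5 one of 9.31 and stage 13 one of 7.80, beside medians over all genes of 0.01, 0.02 and 0.12.

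**Figure D1:**
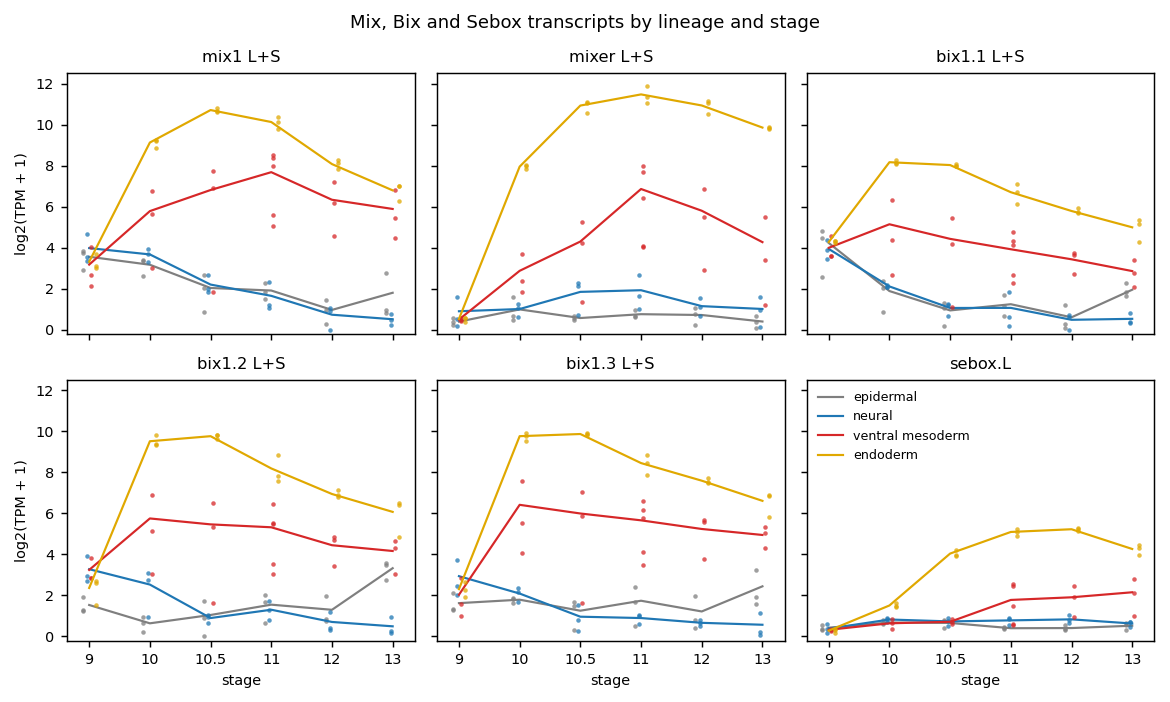
Levels of the 6 genes (L and S summed, sebox.L alone) on the log2(TPM + 1) scale against stage, with a point per library and a line through the log2 of the group mean plus 1, coloured by lineage. The endoderm means lay above those of the other lineages from stage 10 on, sebox.L with a mean of only 1.84 TPM at that stage. At stage 13 libraries of endoderm and ventral mesoderm overlapped for some genes, mix1 among them. The ventral mesoderm means lay between those of endoderm and of the other lineages from stage 10 on, with widely spread libraries. The exception was sebox.L at stages 10 and 10.5, where ventral mesoderm was at 0.56 and 0.64 TPM and the neural mean at 0.77 and 0.66 TPM.

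Members did not peak together in endoderm. bix1.1 had its highest mean, 286 ± 22.6 TPM (SD, n = 3), at stage 10. bix1.2 at 862 ± 67.2 TPM, bix1.3 at 927 ± 19.5 TPM and mix1 at 1670 ± 131 TPM (SD, n = 3) were highest at stage 10.5. mixer was highest at stage 11, with 2834 ± 828 TPM, and sebox.L at stage 12, with 36.3 ± 2.08 TPM (SD, n = 3). sebox.L was already at 91% of its highest mean at stage 11, and its rise to stage 12 was not called. The 11 rows summed were at 36.1 ± 5.70 TPM at stage 9 and at 5678 ± 430 TPM at stage 10.5.

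The Bix genes were the first to be low again, then mix1, while mixer and sebox.L stayed higher. At stage 11, 33.6% of the highest mean of bix1.2, 36.1% of bix1.1 and 37.4% of bix1.3 were left, against 66.8% of mix1. At stage 13 mixer kept 32.6% and sebox.L 50%, while the Bix genes and mix1 kept between 6.59% and 10.8%. mix1 fell to 1115 ± 226 TPM at stage 11 and to 269 ± 39.6 TPM at stage 12 (SD, n = 3). Its mean fell further to stage 13, to 6.59% of the highest.

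Between successive stages of endoderm, edgeR called 11 of 11 rows higher from stage 9 to 10 (3.48% of all genes called higher) and 6 from stage 10 to 10.5 (5.45%). These 6 were both rows of mix1 and mixer, bix1.2.S and sebox.L. From stage 10.5 to 11 only sebox.L was called higher (3.64%), while bix1.1.L, bix1.2.S, bix1.3.L and bix1.3.S were called lower (4.22%). From stage 11 to 12 both mix1 rows, bix1.1.L, bix1.2.S and bix1.3.L fell (3.83% of all genes called lower), and from stage 12 to 13 7 rows fell (2.34%), now including mixer.L and sebox.L. mix1.L dropped by 2.19 ± 0.19 on the log2 scale from stage 11 to 12 (edgeR adjusted p = 0.00228), and mixer.L by 1.15 ± 0.15 from stage 12 to 13 (edgeR adjusted p = 0.00545).

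Libraries with the same replicate number deviated together between successive stages of endoderm. With the replicate number as a block in edgeR, mixer.L and mixer.S were also called higher from stage 10.5 to 11 (adjusted p = 0.00466 and 0.000483), mix1.L was called lower there (adjusted p = 0.0202) and bix1.3.L was called higher from stage 10 to 10.5 (adjusted p = 0.000728). Under that block bix1.3.S and mix1.L were no longer called from stage 12 to 13 (adjusted p = 0.107 and 0.112). The block called 18.3% of all genes higher from stage 10 to 10.5, 15.3% higher and 18.5% lower from stage 10.5 to 11 and 14.7% lower from stage 12 to 13, far more than the fit without it. In one fit of all libraries edgeR called all 11 rises to stage 10 and 3 of the 6 to stage 10.5. It called none of the falls at any later step and not the rise of sebox.L to stage 11. The share of all genes called in that fit is not given. The order of the falls thus rests on the separate fits. Without endoderm replicate 2 at the earlier stage, the 34 calls became 22.

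**Figure D2:**
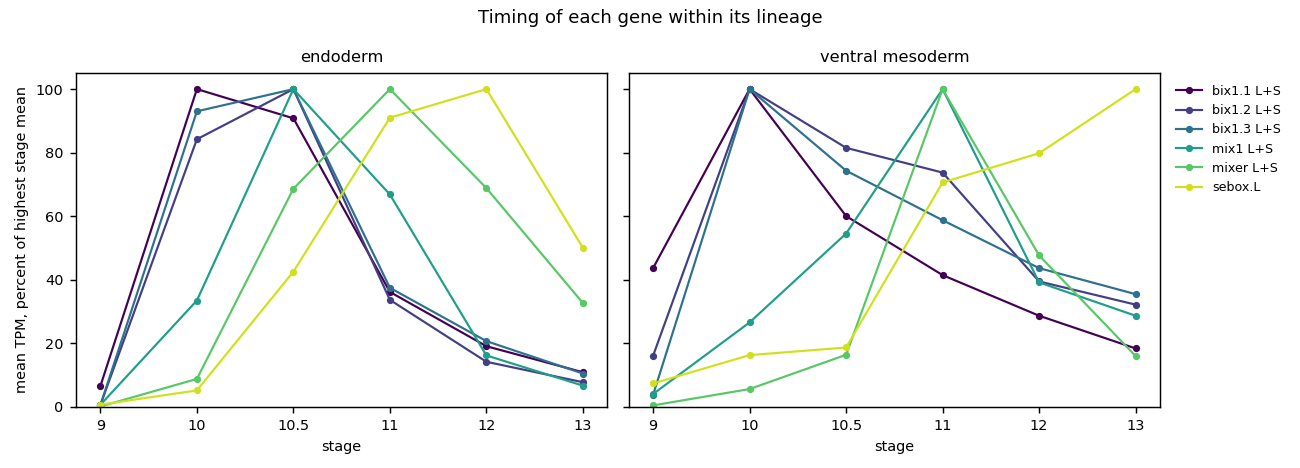
Mean TPM of each gene as a percent of its highest stage mean, against stage, for endoderm (left) and ventral mesoderm (right). In endoderm the curves of the means peak in the order bix1.1, then bix1.2, bix1.3 and mix1, then mixer, then sebox.L. The means of stages 10 and 10.5 are close, with bix1.1 still at 90.8% at stage 10.5 and bix1.3 already at 93% at stage 10. sebox.L is already at 91% at stage 11, and its rise to stage 12 was not called. In ventral mesoderm the means of the 3 Bix genes are highest at stage 10, those of mix1 and mixer at stage 11 and that of sebox.L at stage 13. The libraries of ventral mesoderm are widely spread, and edgeR without a block called no step between its stages.

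BMP4/7-treated explants held the same transcripts at lower and far more variable levels. mix1 with L and S summed had 6.98, 107 and 48.7 TPM at stage 10 and 2.56, 213 and 119 TPM at stage 10.5. At stage 11 mix1 ranged from 32.6 to 362 TPM, with a mean of 204 ± 156 TPM (SD, n = 5), or 193 ± 177 TPM without TPM replicate 4 (n = 4). mixer summed had 1.55, 36.6 and 18.1 TPM at stage 10.5 and a mean of 115 ± 110 TPM at stage 11 (SD, n = 5), or 123 ± 125 TPM without that column (n = 4). The SD was large beside the mean, and replicate 1 was the low library in these values.

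The mean TPM of each Bix gene, with L and S summed, was highest at stage 10 in ventral mesoderm. bix1.3 summed had 15.9, 191 and 44.8 TPM, bix1.2 had 7.26, 117 and 34.2 TPM and bix1.1 had 5.37, 78.2 and 19.5 TPM. Replicate 2 was the highest and replicate 1 the lowest for each, so that these means rest largely on replicate 2. Neither edgeR without a block nor DESeq2 called any row at the step from stage 10 to 10.5. In CPM the means of bix1.3.L and bix1.2.S were highest at stage 10.5. sebox.L stayed at or below 0.81 TPM through stage 10.5 and reached 1.02, 3.26 and 6.04 TPM at stage 13.

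Against untreated explants, edgeR called none of the 11 rows higher in ventral mesoderm at stages 9, 10, 10.5 and 11, where it called 0%, 0%, 0.00365% and 0.0438% of all genes higher. At an unadjusted p under 0.05, 1, 10, 10 and 11 rows were higher at these stages and none was lower. The share of all genes under that unadjusted limit is not given, so these counts have no background beside them. DESeq2's Wald test on the same libraries called 0, 8, 7 and 11 of the rows higher, where it called 0.67%, 0.652%, 0.444% and 1.2% of all genes higher. At stage 12 edgeR called 8 of 11 rows higher (0.39% of all genes) and at stage 13 2 of 11, bix1.3.S and sebox.L (1.15%). DESeq2 called 11 and 8 rows at these stages (1.79% and 4.62% of all genes).

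At stage 12 mix1.L had 14.9, 38.4 and 88.9 TPM in ventral mesoderm and 0.08, 1.05 and 0.68 TPM in epidermal explants, a difference of 6.74 ± 0.90 on the log2 scale (edgeR adjusted p = 0.0323). bix1.3.S had 3.96, 11.0 and 10.8 TPM against 0, 0.27 and 0.11 TPM, a difference of 6.02 ± 0.83 (edgeR adjusted p = 0.0207). All 11 rows were separate between the groups at this stage, which describes the rows, as no share of all genes is given. mixer.L, mixer.S and bix1.3.L were the rows not called, with mixer.L at 4.55, 32.1 and 84.9 TPM.

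The 10 calls over the 6 stages rested on single libraries. They became 25 without ventral mesoderm replicate 1, 0 without replicate 2 and 3 without replicate 3, and 3, 2 and 2 without epidermal replicate 1, 2 or 3. Among ventral mesoderm replicates 1 to 3, replicate 1 was the lowest, in CPM, for 10, 11, 11, 11 and 10 of the 11 rows at stages 10, 10.5, 11, 12 and 13. It was also the lowest for 8, 10, 9, 10 and 9 of the 10 rows of ventral mesoderm markers at these stages. At stage 10.5 the marker sum was 8.84 CPM in the lowest library and 133 CPM in the middle one. Whether this library had a part in the weak calls was measured only by leaving it out.

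**Figure D3:**
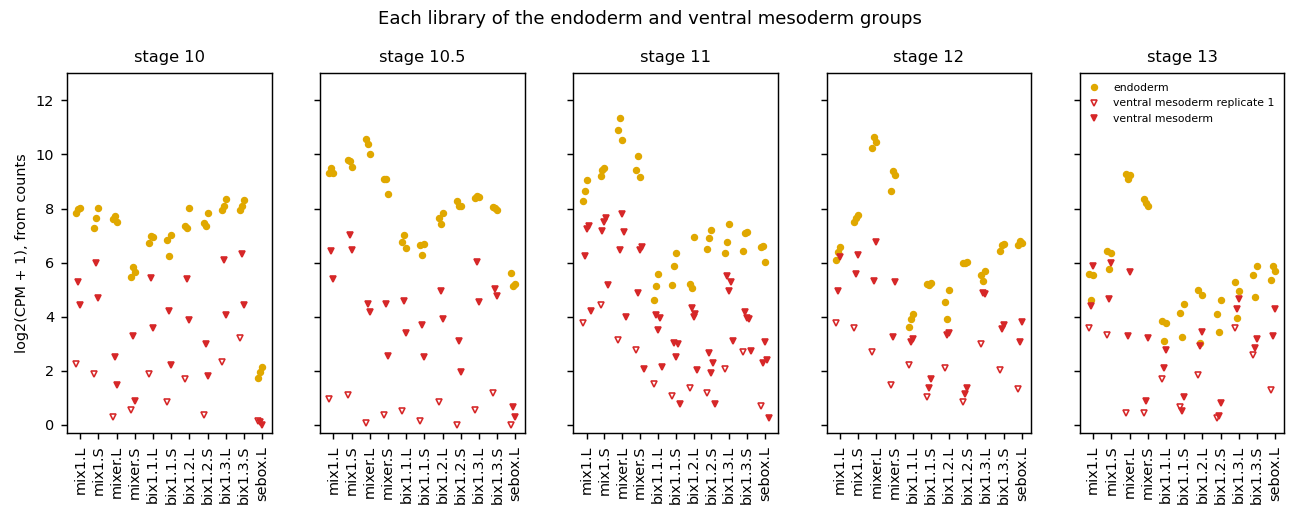
Each library of endoderm (circles) and ventral mesoderm (triangles, open for replicate 1) for the 11 rows at stages 10 to 13, on the log2(CPM + 1) scale from the counts. Endoderm libraries lie above all ventral mesoderm libraries for 11 of 11 rows at stages 10, 10.5 and 11, for 10 at stage 12 and for 7 at stage 13. The share of all genes with separate libraries is not given. The open triangles of replicate 1 are mostly the lowest.

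Endoderm and ventral mesoderm were then compared directly, the question being whether the family separates these related fates. edgeR called 0 of 11 rows higher in endoderm at stage 9 (0.00365% of all genes called higher, no row with an unadjusted p under 0.05 and no call by DESeq2), 2 at stage 10 (0.532%), 2 at stage 10.5 (2.96%), 5 at stage 11 (6.83%), 8 at stage 12 (11.8%) and 5 at stage 13 (14.9%). None was called lower. DESeq2 called 9, 8, 9, 10 and 8 rows higher from stage 10 on, where it called 2.14%, 5.44%, 8.5%, 13.8% and 17.4% of all genes higher. At stage 9, 0 of 11 rows had separate groups, with no share of all genes given.

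Both mixer.L and sebox.L were among the rows called before stage 11. mixer.L at stage 10 had 171, 201 and 162 TPM in endoderm and 0.93, 4.24 and 1.72 TPM in ventral mesoderm, a log2 difference of 6.35 ± 0.83 (edgeR adjusted p = 0.0299). sebox.L at stage 10.5 had 17.7, 13.9 and 14.6 TPM against 0.62, 0.80 and 0.50 TPM, a 24.1-fold ratio of TPM means. The fitted log2 difference of 7.06 ± 0.70 (edgeR adjusted p = 0.00127) is on counts, where sebox.L had 47.7, 34.3 and 35.9 CPM in endoderm and 0, 0.58 and 0.21 CPM in ventral mesoderm, so that the size of the difference depends on the table. mix1.L at stage 10.5 was at 897 TPM or more in endoderm and at 112 TPM or less in ventral mesoderm, yet with a log2 difference of 3.89 ± 1.296 it did not pass (edgeR adjusted p = 0.175, DESeq2 adjusted p = 0.0305).

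The highest stage mean in endoderm exceeded that in ventral mesoderm 24.6-fold for mixer, 16.4-fold for bix1.2, 11.0-fold for bix1.3, 10.5-fold for sebox.L, 8.33-fold for bix1.1 and 8.18-fold for mix1 with homeologs summed. These ratios of TPM means carry the spread of the ventral mesoderm libraries. By stage 13 mix1.L stood at 60.8, 32.0 and 62.5 TPM in endoderm and at 13.5, 24.7 and 68.7 TPM in ventral mesoderm, where the groups overlapped (log2 difference 0.26, edgeR not called). mixer.S was still apart at stage 13, with 465, 447 and 417 TPM against 0.79, 1.81 and 5.90 TPM (log2 difference 6.42 ± 1.17, edgeR adjusted p = 0.0104).

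The 22 calls became 37 without ventral mesoderm replicate 1, and 13 without endoderm replicate 1 or without endoderm replicate 3. Of the single calls named above, that of mixer.L at stage 10 remained in 2 of the 6 fits without a library, and those of sebox.L at stage 10.5 and mixer.S at stage 13 in all 6. When the steps between stages were compared between both lineages in an interaction test, edgeR called 0 of 11 rows at each of the 5 steps, where it called 0.0292%, 0.204%, 0.124%, 0.361% and 0.401% of all genes. At the step from stage 9 to 10, 9 rows rose more in endoderm at an unadjusted p under 0.05, for which no share of all genes is given. DESeq2 called 3 at that step (bix1.2.S, mix1.L and mixer.L, with 0.305% of all genes). At the later steps there were 0 by either measure. By edgeR without a block, a difference in timing between the lineages was thus not shown. With the replicate number within each lineage as a block, edgeR called 1 row as rising more in endoderm to stage 10. Under that block it called 1 row lower at the step to stage 12, and 1 higher and 2 lower at the step to stage 13. The share of all genes called in the interaction test under the block is not given. Among steps of ventral mesoderm alone edgeR called 0 of 11 rows at each step, where it called 0.729%, 0%, 0.00729%, 1.24% and 3.79% of all genes. Over these steps 9 rows were higher and 0 lower at an unadjusted p under 0.05, again without a share of all genes. DESeq2 called 6 higher, 5 of them at the step to stage 10 (4.3% of all genes) and 1 at the step to stage 11 (2.44%). With the replicate number as a block, edgeR called 3 rises to stage 10 (8.26% of all genes called higher), 2 to stage 10.5 (15%), 1 to stage 11 (1.38%) and 1 to stage 12 (15.9%), and 5 falls to stage 12 (15.4% of all genes called lower) and 1 to stage 13 (13%).

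**Figure D4:**
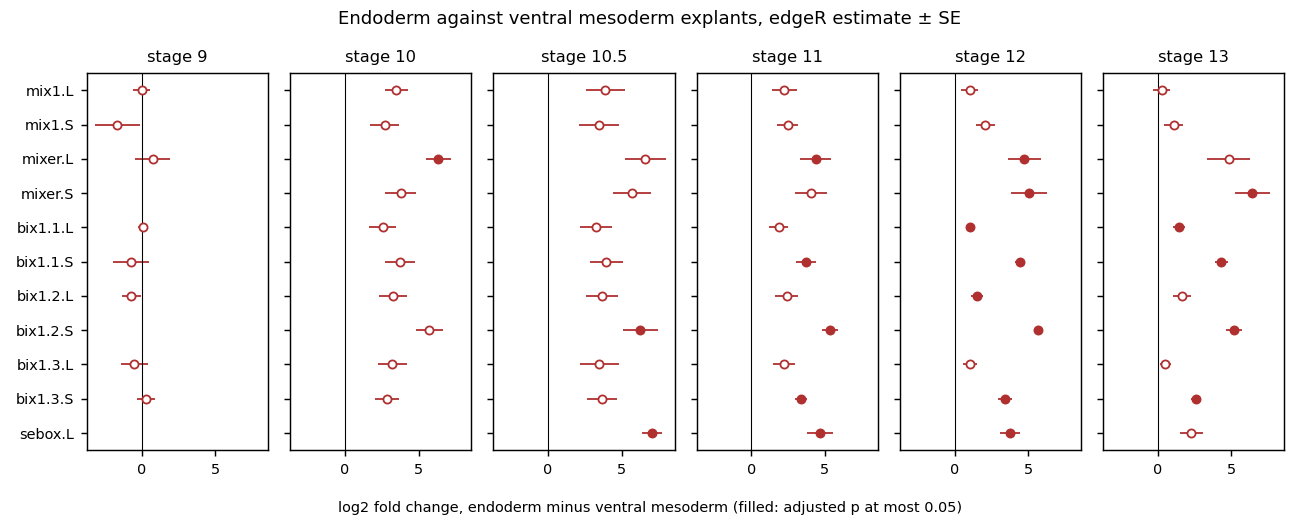
Log2 fold change of endoderm over ventral mesoderm for the 11 rows at each stage, as edgeR estimate ± SE, filled where the adjusted p was at most 0.05, without the values for which a group held at most 3 counts in each library. From stage 11 on, the S rows of the 3 Bix genes are filled. Of their L rows, bix1.1.L is filled at stages 12 and 13, bix1.2.L at stage 12 and bix1.3.L at no stage.

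The homeologs of the Bix genes differed between the lineages. bix1.2.S had 60.96, 65.1 and 67.4 TPM in endoderm at stage 12 and 0.71, 1.35 and 1.63 TPM in ventral mesoderm, a log2 difference of 5.65 ± 0.28 (edgeR adjusted p = 2.10e-06). bix1.2.L had 56.4, 43.2 and 71.5 TPM against 9.12, 23.8 and 25.6 TPM, a log2 difference of 1.53 ± 0.41 (edgeR adjusted p = 0.0280). In ventral mesoderm at stage 12 bix1.2.S made up 6.19% of the TPM and 15.1% of the counts of bix1.2. In endoderm at that stage it made up 53.5% of the TPM and 74.5% of the counts, so that the balance of the homeologs in a lineage differs between TPM and counts.

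bix1.1 showed the same order. At stage 12 the log2 difference was 4.41 ± 0.29 for bix1.1.S (edgeR adjusted p = 1.10e-05) and 1.07 ± 0.32 for bix1.1.L (edgeR adjusted p = 0.0392), the latter remaining in 1 of the 6 fits without a library. For bix1.3 it was 3.42 ± 0.47 for bix1.3.S (edgeR adjusted p = 0.00193) and 1.07 ± 0.46 for bix1.3.L (edgeR adjusted p = 0.149).

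As a share of TPM, bix1.2.S made up 31.0%, 29.5% and 29.2% of bix1.2 in the endoderm libraries at stage 10 and 51.9%, 60.1% and 48.5% at stage 12. In ventral mesoderm it made up 4.68%, 7.12% and 7.94% at stage 10 and 7.22%, 5.36% and 5.99% at stage 12. At stage 11 the share lay between 33.7% and 56.2% in endoderm and between 4.63% and 17% in ventral mesoderm, and no library of one group reached the other. bix1.1.S took 52.3% to 61.4% of bix1.1 in endoderm at stage 11 and 0% to 40.1% in ventral mesoderm. The lowest ventral mesoderm values of both genes, 4.63% and 0%, came from TPM replicate 4, the column least like the others of its group. In counts bix1.1.S took 17.6% to 37.5% in ventral mesoderm and 59.7% to 63.1% in endoderm.

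bix1.3 changed order, with a lower S share in endoderm than in ventral mesoderm at stage 10 (43.6% against 53.4%) and a higher one at stage 12 (63.5% against 25.2%), each with separate libraries. For mix1, mixer and bix1.3 at stage 11 the shares of the 2 lineages overlapped. The comparisons of shares were chosen after the shares were seen and are given as descriptions, without p-values. Shares of counts, which are not scaled to length, gave the same separation of bix1.2 and bix1.1 at stages 10, 10.5, 11 and 12, with 68.2% of bix1.2 in endoderm against 24.1% in ventral mesoderm at stage 11. bix1.2.S had 15 to 83 counts in the ventral mesoderm libraries at stage 11, and whether reads were moved between neighbouring Bix rows was not tested.

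Within endoderm, the S share of TPM was higher at stage 12 than at stage 10 for the Bix genes and mix1. From stage 10 to stage 12 it went from 32.4% to 58.9% for mix1, from 41.9% to 67.8% for bix1.1, from 29.9% to 53.5% for bix1.2 and from 43.6% to 63.5% for bix1.3. The libraries of the 2 stages were separate for each. At stage 13 the mean share was lower again for these genes, at 53.6%, 53.3%, 28.2% and 57.1%. The libraries of stages 12 and 13 were separate for bix1.1 and bix1.2 and overlapped for mix1 and bix1.3. For mixer the share was 24.4%, 23.5% and 35.4% at stage 10 and 35.3%, 42.9% and 44.1% at stage 12, where 1 library of stage 10 reached the lowest of stage 12. In counts the mixer shares were 18.1%, 21.3% and 21.6% against 24.6%, 29.5% and 30.1%, and the stages were separate.

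**Figure D5:**
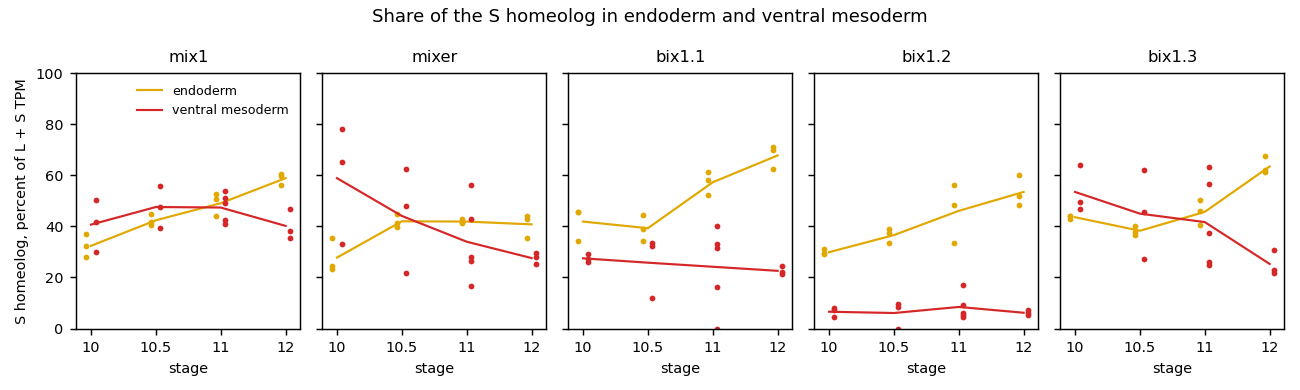
Share of the S homeolog in the summed TPM of L and S, in percent, against stage from 10 to 12 for endoderm and ventral mesoderm, with a point per library and a line through the means. The lineages are apart for bix1.1 and bix1.2 at all 4 stages, while for mix1 and mixer they overlap at stages 10, 10.5 and 11.

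At stage 9, transcripts of bix1.1.L, mix1.L and bix1.2.L were present in all lineages. Over the 12 libraries of stage 9, bix1.1.L had 4.67 to 26.3 TPM with a mean of 15.4 ± 5.83 TPM (SD, n = 12), mix1.L had 3.34 to 22.8 TPM with a mean of 9.75 ± 5.17 TPM and bix1.2.L had 1.06 to 12.3 TPM with a mean of 5.48 ± 3.67 TPM. The S homeologs of the same genes had means of 1.04, 0.92 and 0.31 TPM. The L homeolog was higher in 12 of 12 libraries for bix1.1, mix1 and bix1.2. bix1.3 went the other way, with L higher in 2 of 12 libraries. mixer was at no more than 0.66 TPM of mixer.L, with L higher in 11 of 12 libraries. These comparisons were also chosen after the values were seen and are given as descriptions, without p-values.

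In the lineages without Activin or BMP4/7 the values of bix1.1.L and mix1.L were lower at the later stages. bix1.1.L in epidermal explants had 4.67, 26.3 and 20.0 TPM at stage 9, 0.70, 3.59 and 2.86 TPM at stage 10 and 0.15, 1.33 and 0.60 TPM at stage 10.5. In neural explants it had 9.45, 17.6 and 12.41 TPM at stage 9 and 3.25, 2.79 and 2.74 TPM at stage 10. mix1.L fell more slowly, with 4.70, 8.83 and 7.63 TPM in epidermal explants at stage 10 and 0.81, 2.46 and 2.71 TPM at stage 10.5. Replicate 1 was the low epidermal library for both genes at stages 9 to 10.5.

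edgeR called 1 of 11 rows in the neural series, bix1.1.L, lower by 1.83 ± 0.33 on the log2 scale from stage 9 to 10 (adjusted p = 0.0326), where 1.71% of all genes were called lower. It called 0 of 11 at each other step of that series, where it called 1.69%, 0%, 0% and 0% of all genes, and 0 of 11 at each step of the epidermal series, where it called 2.05%, 0%, 0%, 0% and 0%. At an unadjusted p under 0.05, 5 epidermal and 8 neural steps of a row were lower, and 3 epidermal and 1 neural were higher. No share of all genes is given at that limit. In the epidermal series DESeq2 called 1 fall at the step to stage 10 (6.45% of all genes), 1 fall at the step to stage 12 (2.92%) and 2 rises at the step to stage 13 (4.51%). In the neural series it called 2 falls at the step to stage 10 (5.19%) and 3 at the step to stage 10.5 (4.83%). Libraries of the same number deviated together in both series, and with the replicate number as a block edgeR called more of all genes as well as of the rows. In the epidermal series it called 2 falls to stage 10 (18.3% of all genes called lower), 2 falls to stage 10.5 (16.8%), 1 rise to stage 11 (13.4% called higher), 2 falls to stage 12 (12.9%) and 3 rises to stage 13 (13.9%). In the neural series it called 3 falls to stage 10 (14.3%) and 5 to stage 10.5 (15.7%). Counts of 1 or 2 of 11 rows are near these backgrounds. Under the block the falls of bix1.1.L (epidermal stage 9 to 10, adjusted p = 5.10e-12) and mix1.L (epidermal stage 10 to 10.5, adjusted p = 7.275e-05) were called. Without any single library of the 2 stages, the neural call was lost.

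The L homeologs of the Bix genes had higher values again in untreated explants at stage 13. bix1.2.L had 0.66, 2.86 and 0.78 TPM in epidermal explants at stage 12 and 10.2, 11.1 and 5.72 TPM at stage 13. bix1.1.L moved from 0.05, 1.05 and 0.21 TPM to 2.6, 2.09 and 3.35 TPM, and bix1.3.L from 0.77, 2.58 and 0.24 TPM to 2.84, 8.23 and 0.99 TPM. Groups were separate for bix1.1.L and bix1.2.L. edgeR called none of these 3 steps (adjusted p = 0.140, 0.140 and 0.317 for bix1.1.L, bix1.2.L and bix1.3.L), and with the replicate number as a block it called all 3 (adjusted p = 0.000877, 0.000627 and 0.00320).

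Neural explants held almost none of these transcripts at stage 13, with 0 counts of bix1.2.L in each library and at most 2 counts of bix1.1.L and bix1.3.L, while epidermal explants held 99, 46 and 35 counts of bix1.2.L. A count of 0 allows up to 3 counts per library. edgeR called these 3 rows lower in neural than in epidermal explants at stage 13 (adjusted p = 0.0150 for bix1.1.L, 0.0102 for bix1.2.L and 0.0354 for bix1.3.L), where 2.98% of all genes were called lower. The S rows of the Bix genes had at most 8 counts in either group. At the same stage the endoderm marker sum was higher in neural than in epidermal explants, 377.9 to 1641 against 74.55 to 138.2 CPM, and the ventral mesoderm marker sum was lower, 13.1 to 26.5 against 227.2 to 272.9 CPM, and their part in the result was not tested. The 3 calls became 0 without epidermal replicate 1, 1 without epidermal replicate 2 and 1 without neural replicate 3. Whether the medium of the neural explants had a part in these calls was not tested.

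At stages 9, 10, 10.5, 11 and 12 edgeR called 0 of 11 rows between neural and epidermal explants, where it called 0.00365%, 0.0365%, 0.222%, 2.65% and 13.1% of all genes. At an unadjusted p under 0.05, 6 rows over these stages were higher and 3 lower in neural explants, with no share of all genes given. DESeq2 called 1 higher at stage 9 (0.674% of all genes) and 1 lower at stage 11 (3.37%). Endoderm at stage 13 remained above epidermal explants for bix1.2.L, with 71.7, 17.4 and 58.1 TPM against 10.2, 11.1 and 5.72 TPM (log2 difference 2.55 ± 0.58, edgeR adjusted p = 0.00980).

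The members differed in how alike their patterns were over the 24 group means of log2(TPM + 1) with homeologs summed. bix1.2 and bix1.3 were the closest pair (Pearson r = 0.985), and mix1 was nearest to bix1.3 (r = 0.966). sebox was nearest to mixer (r = 0.933) and farthest from bix1.1 (r = 0.608). The 24 groups share stages and libraries, and the values are descriptions.

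Among 12444 genes with at least 10 TPM in a group, the non-members most like mix1 were hes7.2, a Hairy and Enhancer of split repressor (r = 0.953), the T-box factor vegt (r = 0.947) and the unnamed model Xelaev18016832m (r = 0.932). For mixer they were LOC108705994 (r = 0.985), xenf (r = 0.985) and clcf1, a cytokine (r = 0.978). bix1.2 and bix1.3 were both nearest to snai1, a zinc-finger repressor of epithelial genes (r = 0.935 each), and to hes7.2 (r = 0.928 and 0.935), followed by the Nodal ligand nodal2 for bix1.2 (r = 0.902) and Xelaev18016832m for bix1.3 (r = 0.927). bix1.1 was nearest to LOC101733813.1 (r = 0.909), the Nodal antagonist lefty (r = 0.902) and Xelaev18032677m (r = 0.885). sebox was nearest to glipr1l1 (r = 0.982), spns2, a sphingolipid transporter (r = 0.972), and klrc4-klrk1 (r = 0.968). In endoderm xenf was listed at 0 TPM at stage 9 and had 1960 ± 456 TPM at stage 11 (SD, n = 3), the stage at which mixer was highest.

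Other genes of the pathway were counted from lists. Of 19 tested rows of ligands and antagonists of the Nodal branch, 12 were called higher and 1 lower in endoderm than in epidermal explants at stage 10.5, and 10 and 1 at stage 12. Of all genes, 4.33% and 12.2% were called higher and 3.68% and 10.4% lower at these stages. lefty, the feedback antagonist, had 674 ± 18.3 TPM in endoderm at stage 10.5 and 5.44 ± 2.18 TPM in epidermal explants. The antagonist cer1 had 2840 ± 951 TPM against 0.11 ± 0.05 TPM at stage 12 (SD, n = 3 each). dand5, another antagonist, had 289 ± 55.9 against 186 ± 76.0 TPM at stage 10.5 and was not called in either homeolog.

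Of 27 tested rows of signal transducers and upstream factors, 6 were called higher and 2 lower in endoderm at stage 10.5. At stage 12 there were 8 and 6. Of all genes, 4.33% and 12.2% were called higher and 3.68% and 10.4% lower. vegt had 2230 ± 197 TPM in endoderm and 66.5 ± 43.6 TPM in epidermal explants at stage 10.5. eomes, a T-box factor of mesendoderm, had 985 ± 43.6 against 9.82 ± 4.82 TPM (SD, n = 3 each). The median log2 difference of this list at stage 10.5 was 0.15, near that of all genes.

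Another list held 28 rows of endoderm factors that act with or after Mix and Bix proteins. Of these, 21 were called higher in endoderm than in epidermal explants at stage 10.5 and 27 at stage 12. Of all genes, 4.33% and 12.2% were called higher. foxa4, a forkhead factor, had 1420 ± 33.4 TPM at stage 10.5, sox17b.1 558 ± 24.7 TPM and sox17a, like sox17b.1 an HMG-box endoderm factor, 393 ± 14 TPM (SD, n = 3 each). In ventral mesoderm against epidermal explants edgeR called 2 of these 28 rows higher at stage 12 (0.39% of all genes). DESeq2 called 9 (1.79%). Against ventral mesoderm, 16 and 27 of the 28 rows were called higher in endoderm at stages 10.5 and 12 (2.96% and 11.8%).

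The last list held 29 tested rows of mesoderm factors that Mix and Bix proteins restrain or share cells with. Of these, 20 were called higher in endoderm than in epidermal explants at stage 10.5 and again 20 at stage 12. Of all genes, 4.33% and 12.2% were called higher. gsc, a homeobox gene of the organizer, had 978 ± 80.6 TPM in endoderm and 4.25 ± 3.80 TPM in ventral mesoderm at stage 10.5. lhx1 had 462 ± 46.9 TPM against 7.25 ± 7.44 TPM and fgf8 146 ± 18.7 TPM against 48.4 ± 41.3 TPM (SD, n = 3 each). Between endoderm and ventral mesoderm 9 rows were called higher and 0 lower at stage 10.5, and 7 higher and 8 lower at stage 12. Of all genes, 2.96% and 11.8% were called higher and 2.22% and 10.3% lower. Beside these, 2 and 8 of the 11 Mix and Bix rows were called higher in endoderm, and 0 lower, at the same 2 stages.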

How the data were processed

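The authors aligned reads of mRNA libraries to the X. laevis v9.2 genome from Xenbase with STAR and deposited the raw count of reads per gene. The authors also deposited TPM values made with RSEM, scaled to gene length and library, and entries with the same symbol were summed. Columns were assigned by their names, and no replicates were pooled. There were 45656 genes with counts, and 51061 entries with TPM that fell under 46013 symbols.

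A gene entered the tests if any library held 15 or more of its counts, which left 27424 genes. Each pair of groups was fitted alone in edgeR 4.0.16 (R 4.3.3) with TMM factors and the robust quasi-likelihood F test, p-values were adjusted after Benjamini and Hochberg over these genes, and 0.05 was the threshold. The standard error is |log2 fold change| divided by √F. DESeq2 1.42.0 (Wald test), size factors of the DESeq2 type, no filter, a replicate block, one fit of all libraries, summed homeologs and leaving out libraries were the alternatives. No fold is given against a group with at most 3 counts in each library. Leaving out TPM replicate 4 of ventral mesoderm at stage 11 and taking homeolog shares from counts were added after seeing the data. The code was tested on simulated data. Levels, shares and correlations were computed in Python 3.11.15.

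Replicate numbers come from the labels. Same-numbered libraries of successive stages had correlated deviations from the group means over 0.1 in all pairs of all 5 steps in the epidermal, neural and endoderm series (lowest 0.487) and in 4 of 5 steps of ventral mesoderm.

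Named are the members, the 3 other genes most like each by Pearson correlation and, for each of 4 pathway lists, up to 3 genes with the largest mean TPM over the lineages at stage 10.5 or 12. Of these, 1 is not reported here. The members and lists were chosen with earlier results of these data known.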

Additional observations from a re-analysis of the deposited data

Results flagged for a closer look

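In ventral mesoderm at stage 11, bix1.3.S had 5.81, 17.6, 6.10, 60.3 and 14.2 TPM in replicates 1 to 5. The highest value, that of replicate 4, stood away from the next by 0.783 of the range of the group, above the limit of 0.710 for 5 samples, which chance passes in about 1 of 20 groups. This is the TPM column that correlated least with the others of its group. Without it, bix1.3.S had a mean of 10.9 ± 5.92 TPM (SD, n = 4), against 20.8 ± 22.7 TPM with it. In CPM from the count table no member of this group passed the limit. The limit was applied to every member row and sum of this group, in TPM and in CPM, and only bix1.3.S in TPM passed. With that many values tested, a single pass is not beyond what chance gives.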

How the results depend on the processing

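Calls were counted over all stages or steps of a comparison. DESeq2's Wald test gave 45 calls for ventral mesoderm against epidermal explants (10 by edgeR), 44 for endoderm against ventral mesoderm (22), 6 for neural against epidermal explants (3), 4, 5 and 6 for steps of the epidermal, neural and ventral mesoderm series (0, 1 and 0) and 3 for the interaction (0). One fit of all libraries gave 46 and 43 for the first 2 of these, 2, 0, 9 and 14 for steps of the epidermal, neural, ventral mesoderm and endoderm series (34 for endoderm by separate fits, the 14 all being rises) and 1 for the interaction. The replicate block gave 19 for ventral mesoderm against epidermal explants, where the numbers do not pair the samples, 10, 8 and 13 for the epidermal, neural and ventral mesoderm steps and 5 for the interaction. Summing homeologs leaves 6 rows a stage in place of 11 and gave 30 calls for endoderm against epidermal explants (55), 6 for ventral mesoderm against epidermal explants and 18 for endoderm steps. Leaving out a replicate gave 54 to 55 calls for endoderm, 0 to 25 for ventral mesoderm and 0 to 3 for neural against epidermal explants, 13 to 37 for endoderm against ventral mesoderm, 0 to 1 for epidermal, 0 for neural and ventral mesoderm and 22 to 31 for endoderm steps and 0 for the interaction. Of the 18 genes most like the members, 8 were kept by rank correlation and 9 by log2 CPM, on which 4 had no value, and neither setting kept any of the 3 of sebox. Of 125 single calls, none changed direction under any setting, but 24 were lost in one fit of all libraries, 12 under the block, 8 without the filter on low counts and 1 with only replicates 1 to 3 of ventral mesoderm at stage 11. Leaving out a replicate lost the call in 140 of 760 cases. The cause of these changes was not tested. No share of all genes is given for one fit of all libraries, summed homeologs, left-out replicates or the block between lineages. The totals under these settings therefore do not show whether a setting called more of all genes.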
